A study of Mus musculus with 10 samples.

Results

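The outer hair cells (OHCs) of the neonatal mouse cochlea were compared with the supporting cells (SCs) that surround OHCs in the more mature cochlea. The libraries were taken by the name that each count file carries: 15 and 14 for OHCs at P7, and 12 and 11 for SCs at P27 and P26, so that 4 of the 10 libraries of the series entered the comparison with 2 on each side, and all genes were tested. Each library was made from RNA of a small pool of handpicked fluorescent cells, amplified before sequencing. SCs were Deiters' and pillar cells carrying Fgfr3iCreER and a Rosa26-CAG-loxP-stop-loxP-tdTomato reporter, in which Cre is active in cells that express the gene for fibroblast growth factor receptor 3 and is switched on by tamoxifen, given at P12 and P13. For OHCs (P7), the sample labels give heterozygous knock-in mice with prestin-YFP, a line whose fluorescence follows the OHC motor protein prestin. The study's own summary of mouse lines instead gives PrestinCreERT2 with the same tdTomato reporter and tamoxifen at P2 and P3, and this disagreement could not be settled here. Both sides were without the Atoh1 transgene that the converted hair cells (cHCs) of the same series carry. Cell type, age, reporter line and tamoxifen were changed together, so their effects cannot be told apart.

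Hair cells turn sound-driven deflection of their bundle of stereocilia into a receptor current, and OHCs feed mechanical force back into the cochlea through prestin. Supporting cells hold the hair cells in place, buffer the potassium that leaves them and are held in their own fate by Notch signaling, whose effectors repress the hair cell program. In the first postnatal weeks of the mouse, OHCs acquire their mature motor, channels and efferent innervation, and hearing begins near the end of that period.

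The 4 libraries held from 15016129 to 40518766 counts on genes, and 3 counts corresponded to between 0.074 and 0.2 counts per 1000000 (CPM). Mitochondrial genes took 26.7% to 31.8% of the counts in these libraries. Across 20127 detected genes, Spearman's rho was 0.842 between the OHC (P7) libraries, 0.806 between the SC libraries and from 0.689 to 0.718 across cell types, given as a description. The records of 4 of the 10 samples hold the file of another library, which is why the library was read from the file name. SC 12 differed from the other 3 libraries in sex-linked transcripts: Xist, the RNA that silences an X chromosome, stood at 2.31 CPM in SC 12 and from 1127 to 1946 CPM elsewhere, and Eif2s3y, on the Y chromosome, at 91.5 CPM in SC 12 and at most 0.134 CPM elsewhere.

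The labels were checked against marker genes. Of 10 hair cell markers, 9 were called higher in OHCs (P7), and the summed level of the 10 was 365 and 364 CPM in SC 12 and SC 11 against 7450 and 7303 CPM in OHC (P7) 15 and 14. Of 10 supporting cell markers, 3 were called lower and 7 were not called, with summed levels of 8858 and 12873 CPM in SCs against 919 and 1165 CPM in OHCs (P7). Most of each sum came from a single marker, S100a1. SC 12 held 7255 CPM of it, SC 11 10808 CPM, OHC (P7) 15 809 CPM and OHC (P7) 14 791 CPM. The sums thus chiefly show S100a1. Among the 10, Prox1 alone had a higher mean in OHCs (P7), 47.9 CPM against an SC mean of 34.2 CPM. Levels in CPM, scaled by the TMM (trimmed mean of M-values) method, are given below in this order of libraries: SC 12, SC 11, OHC (P7) 15, OHC (P7) 14. In such bulk samples, fewer cells of a type and less RNA per cell cannot be told apart.

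Among the 16891 genes tested, 432 (2.56%) were higher and 144 (0.853%) were lower in OHCs (P7) than in SCs at a false discovery rate (FDR) under 0.05, by edgeR's quasi-likelihood test with Benjamini-Hochberg adjustment. The median log2 fold change was 8.11 among the higher genes and -7.26 among the lower ones, and 0.00 over all tested genes. An unadjusted p under 0.05 was reached by 3194 genes. The groups' libraries did not overlap for any of the 576 called genes, which was also true of 8195 genes (48.5%) of all tested. In SCs, 27 of the higher genes had no count, and 9 of the lower genes had none in OHCs (P7). All 576 were also called in the same direction by DESeq2, while limma-voom did not call 51 of the higher and 31 of the lower genes. DESeq2 made far more calls than edgeR, and on simulated counts of this design most of its calls were false, so its counts below are given as alternatives and not as support. With each library left out in turn, 211 of the higher and 24 of the lower genes were called every time, and the number called lower fell to 61 without OHC (P7) 15 and to 83 without OHC (P7) 14.

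**Figure D1:**
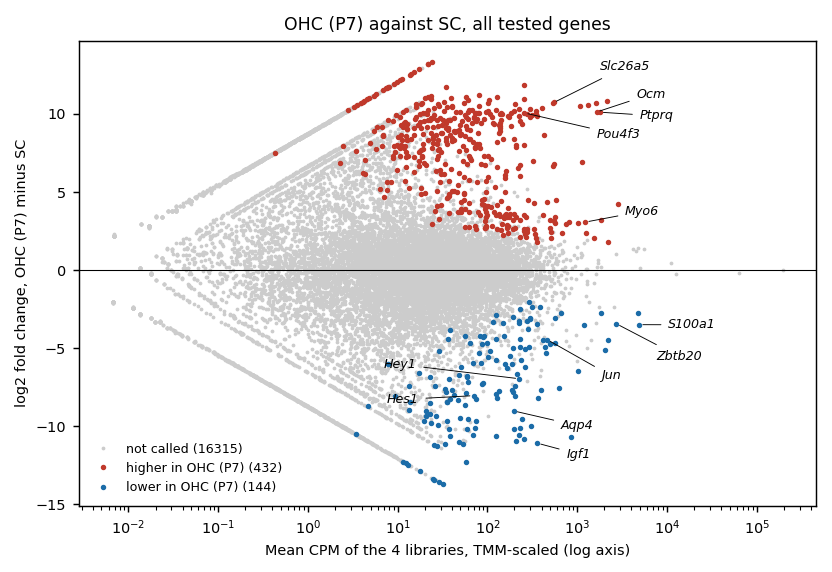
Each dot is a tested gene, with its mean CPM over the 4 libraries on a log axis and its fitted log2 fold change, OHC (P7) minus SC. The 432 red genes were called higher and the 144 blue genes lower in OHCs (P7), with a few genes named, and the outer straight bands are genes without a count on one side.

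Counted over the 5 hair cell lists, which cover transcription factors, mechanotransduction, bundle, synapse, and motor and channel genes, 54 of 114 tested genes were higher in OHCs (P7) and 0 were lower by edgeR. Below 0, an unadjusted p under 0.05 was reached by 2 of these genes. DESeq2 called 1 of the 114 lower and limma-voom 0. Of the 54 genes, 45 were called each time a library was left out. Over the 4 supporting cell lists, 11 of 104 tested genes were lower and 3 were higher, and 3 of these 14 genes were called each time a library was left out.

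**Figure D2:**
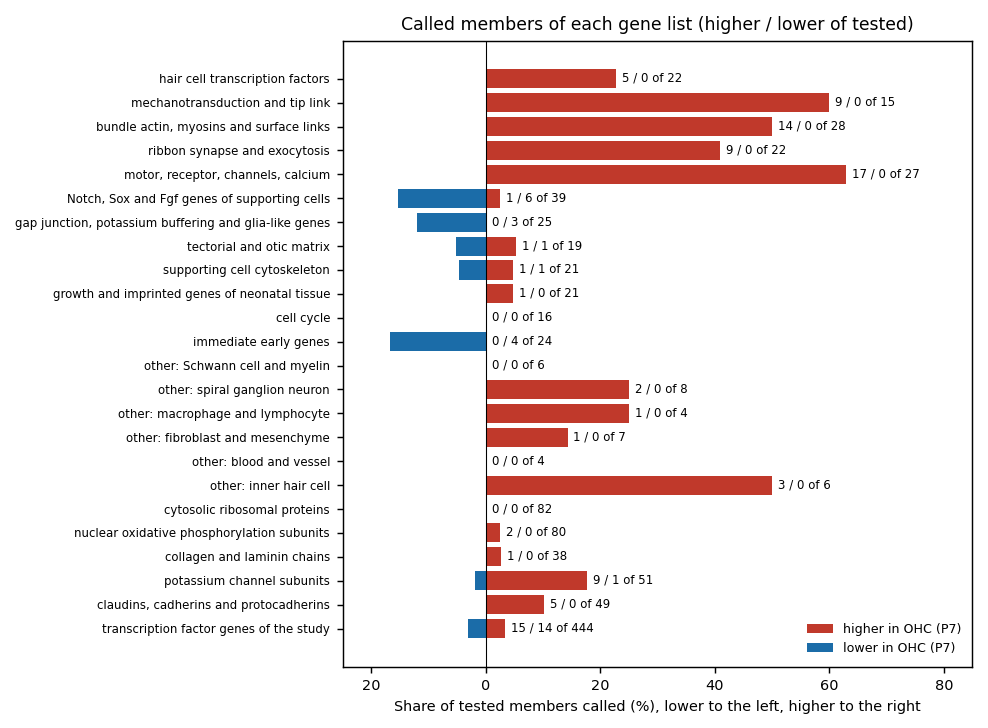
Bars give the share of each list's tested members called higher (red, to the right) or lower (blue, to the left) in OHCs (P7), in percent, and the text beside each bar gives the counts. Over all tested genes the shares were 2.56% higher and 0.853% lower.

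Transcription factors of hair cells had the smallest share of called members among these lists: 5 of 22 rose and 0 were called lower by edgeR (1 below 0 with an unadjusted p under 0.05, DESeq2 0, limma-voom 0), with a median log2 fold change of 1.51. Pou4f3, a POU-domain factor that hair cells need to survive, was at 0.355 and 0.584 CPM in SCs and at 487 and 543 CPM in OHCs (P7), a log2 difference of 10.07 ± 0.65 (SE, n = 2 per group) with FDR = 1.28e-05. The groups stood far apart and the replicates close together. Gfi1, a zinc finger repressor of neuronal genes in hair cells, rose from 0 and 0.106 CPM to 125 and 91.8 CPM (log2 10.68 ± 1.38, FDR = 0.00158). Barhl1, a homeodomain factor for hair cell maintenance, rose from 0.267 and 0.266 CPM to 82 and 30.4 CPM (log2 7.70 ± 1.16, FDR = 0.00414). The LIM-homeodomain factor Lhx3 and the spalt-family factor Sall3 were the other called members, at 39.9 and 58 CPM and at 290 and 292 CPM in OHCs (P7), and their SC levels were 0.0888 and 0.186 CPM and 10.1 and 39.9 CPM. For Atoh1, the factor that starts hair cell differentiation, the levels were 0.267, 1.91, 2.15 and 6.44 CPM and no difference was called (log2 1.96 ± 1.03, FDR = 0.33). Isl1, a LIM-homeodomain factor, was measured at 143 and 120 CPM in SCs and at 18.6 and 48.9 CPM in OHCs (P7), with FDR = 0.176. Rfx3, a ciliogenic factor of the RFX family, missed the threshold at 21.7, 22.2, 100 and 149 CPM (FDR = 0.0691). Leaving out single libraries gave 3 to 5 called members, with 3 without SC 12: Lhx3 lost its call without either SC library (FDR = 0.0577 and 0.0744 without SC 11 and SC 12) and Sall3 without SC 12, OHC (P7) 15 or OHC (P7) 14 (FDR = 0.119, 0.0519 and 0.0522).

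Mechanotransduction genes rose in 9 of 15 members, namely Clrn1, Loxhd1, Cdh23, Lhfpl5, Tmie, Tmc1, Cib2, Tomt and Whrn, and the median log2 fold change of the list was 8.06, or 7.86 with genes that lack counts on one side set at their bound. Tmc1, a pore-forming subunit of the transduction channel, was at 0.222 and 0.266 CPM in SCs and at 403 and 399 CPM in OHCs (P7), a log2 difference of 10.64 ± 1.44 with FDR = 0.00221. Cdh23, the cadherin of the upper part of the tip link, rose from 0.755 and 1.57 CPM to 344 and 435 CPM (log2 8.37 ± 0.83, FDR = 0.000245). Clrn1, the tetraspan protein whose loss causes a form of Usher syndrome, rose from 0.0888 and 0.133 CPM to 207 and 195 CPM (log2 10.73 ± 0.74, FDR = 1.83e-05), and Loxhd1, a stereociliary protein, rose from 0.178 and 0.372 CPM to 267 and 317 CPM (log2 9.99 ± 0.73, FDR = 2.51e-05). The libraries of each group lay close together for all of these genes. Pcdh15, the lower partner of the tip link, differed from its partner Cdh23 in being present in SCs: its levels were 128, 269, 198 and 277 CPM, with FDR = 0.857. Ush1c, a scaffold of the upper tip-link density, was likewise at similar levels, 130, 112, 93.9 and 141 CPM (FDR = 1). For Tmc2, the channel subunit of immature hair cells, 0.0888, 0.0266, 22.9 and 4.94 CPM were measured, and the OHC (P7) libraries differed from each other more than for Tmc1 (FDR = 0.147). No member was called lower by edgeR, DESeq2 or limma-voom (0 below 0 with an unadjusted p under 0.05), and between 8 and 9 were called when single libraries were left out. Whrn, which encodes the stereociliary scaffold whirlin, was not called without SC 11 (FDR = 0.0571) or SC 12 (FDR = 0.0584).

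Lhfpl5 and Tmie encode partners of the transduction channel, and both hold the hexamer CAGCTG in the 250 bases before their transcription start, as does the nicotinic receptor gene Chrna9. This hexamer is a palindromic E-box of the kind bound by basic helix-loop-helix factors. The upstream sequences are shown because these genes moved together and hold the letters, which stand in capitals; they are from RefSeq (GRCm38.p6), 5′ to 3′ on the strand of the gene, at chr17:28575469-28575718 (plus strand), chr9:110880074-110880323 (minus strand) and chr5:65966874-65967123 (plus strand), all promoter sequence outside the transcripts.
Lhfpl5: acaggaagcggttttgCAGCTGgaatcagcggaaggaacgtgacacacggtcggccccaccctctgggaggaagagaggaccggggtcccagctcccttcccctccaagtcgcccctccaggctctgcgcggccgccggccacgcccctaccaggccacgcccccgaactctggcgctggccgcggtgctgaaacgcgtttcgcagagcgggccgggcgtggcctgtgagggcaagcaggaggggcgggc
Tmie: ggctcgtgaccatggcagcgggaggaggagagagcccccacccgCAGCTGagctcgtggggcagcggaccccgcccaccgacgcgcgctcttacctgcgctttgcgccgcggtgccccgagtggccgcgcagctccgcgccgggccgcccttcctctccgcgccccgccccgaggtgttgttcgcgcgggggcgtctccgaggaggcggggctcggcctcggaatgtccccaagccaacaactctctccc
Chrna9: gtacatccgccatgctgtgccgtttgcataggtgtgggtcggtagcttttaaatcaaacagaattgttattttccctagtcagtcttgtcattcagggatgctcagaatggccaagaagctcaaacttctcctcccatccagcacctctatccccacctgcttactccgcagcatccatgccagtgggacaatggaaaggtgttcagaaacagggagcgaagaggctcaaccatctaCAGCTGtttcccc

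The E-box began 234, 206 and 13 bases before the start of Lhfpl5, Tmie and Chrna9. Upstream sequences were matched for 10357 of the tested genes. CAGCTG was held by 14.8% of all matched genes, by 19.7% of the 300 higher genes and by 16.8% of the 95 lower genes. GTTGCC, a half-site of RFX factors searched on both strands, was held by 12.8% of all matched, 13.3% of the higher and 9.47% of the lower genes. A gene with several listed starts was counted if the window before any of them held the letters. These shares are descriptions of letters in windows of fixed length, and a match is not a site.

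Stereociliary bundle genes rose in 14 of 28 members and fell in 0 by edgeR (unadjusted p under 0.05 below 0 for 1 member, DESeq2 1, limma-voom 0), with a median log2 fold change of 4.35. Ptprq, a phosphatase of the shaft connectors between stereocilia, was among the most abundant, at 3.38 and 3.05 CPM in SCs against 3849 and 3289 CPM in OHCs (P7), a log2 difference of 10.11 ± 0.48 with FDR = 4.01e-06. Strc, which encodes stereocilin of the horizontal top connectors, rose from 0.533 and 0.637 CPM to 700 and 674 CPM (log2 10.18 ± 0.70, FDR = 1.83e-05). Xirp2, an actin-binding protein of the bundle and the cuticular plate, rose from 0.0888 and 0.159 CPM to 138 and 152 CPM (log2 10.09 ± 0.88, FDR = 8.66e-05). Myo3a, a myosin that carries espin to stereociliary tips, rose from 0.533 and 0.186 CPM to 187 and 130 CPM (log2 8.81 ± 0.80, FDR = 0.000121). The other called members included Espn, Grxcr2, Grxcr1, Myo6, Espnl, Gpr98, Myo15, Fscn2 and Myo3b. Myo6, the myosin widely used to stain hair cells, differed from these in its SC level: it was at 277 and 246 CPM in SCs against 2257 and 2144 CPM in OHCs (P7), a log2 difference of 3.07 ± 0.34 (FDR = 0.000472).

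Not every bundle gene was low in SCs. Myo7a, the other common hair cell stain, was at 82.9, 112, 407 and 251 CPM and missed the threshold (log2 1.76 ± 0.46, FDR = 0.0686), although its groups did not overlap. Triobp, which bundles the actin of stereociliary rootlets, was at 79.2, 257, 600 and 683 CPM (FDR = 0.116). Radixin (Rdx), which links actin to the membrane, was at 211, 93.6, 249 and 190 CPM, and the groups overlapped (FDR = 0.648). Plastin 1 (Pls1), an actin bundler, was at 197, 248, 140 and 186 CPM (FDR = 0.673). Leaving out single libraries gave 13 to 16 called members.

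Synaptic genes rose in 9 of 22 members and none was called lower by any of edgeR, DESeq2 and limma-voom (0 with an unadjusted p under 0.05), with a median log2 fold change of 3.43. Otof, which encodes otoferlin, the calcium sensor of hair cell exocytosis, was at 0.622 and 0.637 CPM in SCs and at 1036 and 1145 CPM in OHCs (P7), a log2 difference of 10.75 ± 0.59 with FDR = 6.14e-06. Snap91, a clathrin assembly protein, rose from 0.178 and 0.212 CPM to 208 and 293 CPM (log2 10.28 ± 0.69, FDR = 1.80e-05). Snap25, a membrane fusion protein, rose from 1.11 and 0.637 CPM to 348 and 241 CPM (log2 8.40 ± 0.82, FDR = 0.000214). The calcium channel beta subunit gene Cacnb2 rose from 0.0444 and 0.372 CPM to 119 and 242 CPM (log2 9.65 ± 1.21, FDR = 0.00123). Its pore-forming partner Cacna1d missed the threshold: its SC libraries differed widely from each other, at 28.2 and 0.531 CPM, against 544 and 528 CPM in OHCs (P7), with FDR = 0.0556. Slc17a8, the vesicular glutamate transporter, was measured in these OHCs at 75.5 and 26.3 CPM against 0.0444 and 0.0266 CPM in SCs (FDR = 0.0109), a ratio of summed counts of 1218 with a 95% counting interval from 337 to 10067. Rimbp2, an active zone scaffold, had no count in SCs and was at 51.6 and 8.59 CPM in OHCs (P7), at least 226-fold higher (FDR = 0.0113). Such bounds are set against 3 counts in the SC library where these are worth most. Piccolo (Pclo), a large active zone protein, was at 201, 185, 219 and 239 CPM, with FDR = 0.878. Rab3ip, a Rab3 partner, and Ctbp2, the gene of the ribbon protein RIBEYE, were not called without SC 11 (FDR = 0.0594 and 0.109), and Ctbp2 was also lost without OHC (P7) 14 (FDR = 0.0676) or OHC (P7) 15 (FDR = 0.0561). Between 9 and 11 members were called when single libraries were left out.

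Genes of the motor, the efferent receptor, channels and calcium handling rose in 17 of 27 tested members, and none was called lower by edgeR, DESeq2 or limma-voom (0 with an unadjusted p under 0.05). The median log2 fold change was 7.86. Slc26a5, which encodes prestin and lies at chr5:21316473-21371422 on the minus strand (mm9), was at 0.755 and 0.531 CPM in SCs and at 1061 and 1094 CPM in OHCs (P7), a log2 difference of 10.71 ± 0.87 with FDR = 5.37e-05. Ocm, which encodes the OHC calcium buffer oncomodulin at chr5:144780673-144787539 (minus strand, mm9), rose from 2.71 and 3.16 CPM to 3400 and 3160 CPM (log2 10.12 ± 0.83, FDR = 5.44e-05). The library-to-library spread within OHCs (P7) was small for both. Fam40b, which encodes a striatin-interacting protein, rose from 1.82 and 1.7 CPM to 2722 and 2583 CPM (log2 10.55 ± 0.52, FDR = 4.01e-06).

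The efferent receptor is a nicotinic channel of 2 subunit types that is coupled to a calcium-activated potassium channel. Chrna9 rose from 0.577 and 0.691 CPM to 131 and 160 CPM (log2 7.83 ± 0.84, FDR = 0.000399), and Chrna10 rose from 0.489 and 0.744 CPM to 446 and 486 CPM (log2 9.54 ± 0.69, FDR = 2.22e-05). The potassium channel gene Kcnn2, which encodes SK2, rose with them, from 0.0888 and 0.186 CPM to 117 and 127 CPM (log2 9.70 ± 1.03, FDR = 0.000398). Kcna10, a voltage-gated channel of hair cells, rose from 0.400 and 0.319 CPM to 233 and 240 CPM (log2 9.35 ± 0.66, FDR = 2.18e-05). Kcnma1, which encodes the BK channel, was at 0.0444, 0.0266, 106 and 25.7 CPM (FDR = 0.000548), a ratio of summed counts of 1467 with an interval from 406 to 12124. The calcium buffers rose together: calretinin (Calb2) reached 142 and 160 CPM from 0.622 and 0.478 CPM, and calbindin (Calb1) 2201 and 2139 CPM from 1.33 and 1.59 CPM, with FDR = 2.27e-05 and 0.00709. Parvalbumin (Pvalb) reached 228 and 204 CPM from 1.33 and 1.7 CPM (FDR = 0.000174). Atp2b2, the calcium pump of stereocilia, was at 6.17, 144, 562 and 753 CPM, with SC libraries far apart from each other (FDR = 0.139). Leaving out single libraries gave 15 to 17 called members, and without SC 11 the calls of Sri, Kcnmb2 and Kcnj13 were lost (FDR = 0.101, 0.106 and 0.105) and others were gained. Kcnmb2 and Kcnj13 were also lost without SC 12 (FDR = 0.0753 and 0.148) or OHC (P7) 15 (FDR = 0.0548 and 0.0717), and Sri without OHC (P7) 14 (FDR = 0.0759).

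**Figure D3:**
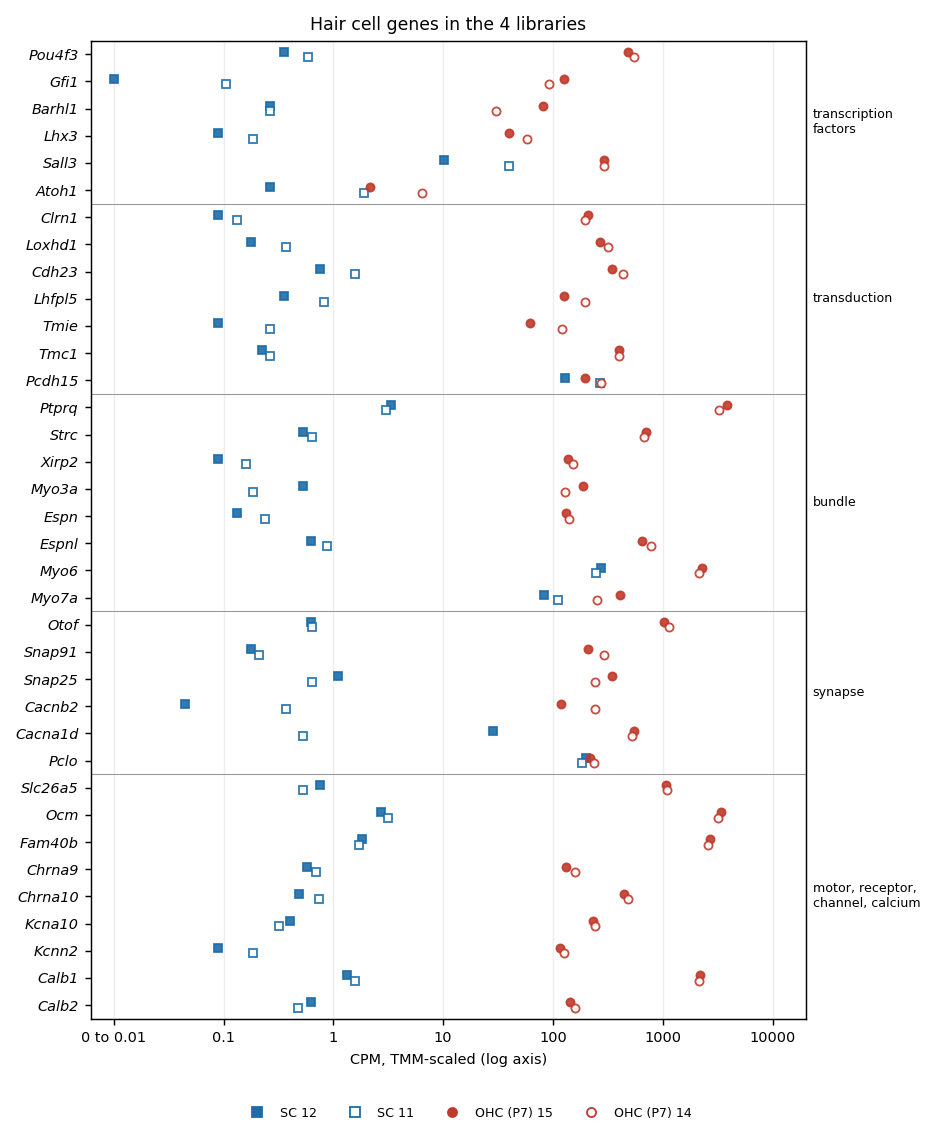
CPM of 36 hair cell genes in each of the 4 libraries on a log axis, with blue squares for SCs and red circles for OHCs (P7), filled for 12 and 15 and open for 11 and 14; values from 0 to 0.01 CPM are drawn at the left edge. Most genes stand far apart between cell types with the replicates together, whereas Pcdh15 and Pclo lie at similar levels in all 4 libraries.

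The most abundant of the higher genes showed how low the SC level was. Among the 24 higher genes with a mean of at least 1000 CPM in OHCs (P7), the mean SC level was under 0.1% of the OHC (P7) level for 8 genes, from 0.0537% for Ighm to 0.0901% for Ptprq, and the next gene stood at 0.809%. The 8 genes were Ighm, Otof, AI593442, Slc26a5, Fam40b, Calb1, Ocm and Ptprq, named after their values were seen, and their mean SC levels ran from 0.63 to 3.22 CPM. Whether those few counts were made in SCs was not tested.

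Among supporting cell genes, signaling genes and their transcriptional effectors gave calls in both directions. Of 39 tested genes of the Notch, Sox and Fgf list, 6 fell (Id1, Hey1, Hes1, Sox9, Id3 and Hey2), 1 rose (Jag2) and 32 were not called, and the median log2 fold change was -2.71. Hey1, a Notch effector of the Hairy and Enhancer of split type, was at 537 and 359 CPM in SCs against 3.89 and 3.30 CPM in OHCs (P7), a log2 difference of -6.96 ± 1.19 with FDR = 0.0092. Hes1, the related repressor of Atoh1, fell from 83.3 and 195 CPM to 1.07 and 0.0273 CPM (log2 -8.05 ± 1.65, FDR = 0.0231). Hey2, the pillar cell member of the family, fell from 198 and 134 CPM to 0.470 and 4.72 CPM (log2 -5.98 ± 1.35, FDR = 0.0368). For all 3 genes, each OHC (P7) library lay far below both SC libraries. Hes5, another effector of this family that is typical of neonatal Deiters' cells, was at 0, 0.0266, 0 and 0.0273 CPM and was thus at or near 0 in all 4 libraries. Id1, a target of bone morphogenetic protein signaling that blocks basic helix-loop-helix factors, fell from 197 and 102 CPM to 0.201 and 0.737 CPM (log2 -8.25 ± 1.09, FDR = 0.00189). Its relative Id3 fell from 173 and 42.5 CPM to 7.59 and 3.98 CPM (log2 -4.22 ± 0.94, FDR = 0.0349). Jag2, a Notch ligand of hair cells, moved the opposite way, from 0.133 and 0.691 CPM to 14.2 and 15.2 CPM (log2 5.10 ± 1.12, FDR = 0.0327), whereas Jag1, the ligand of supporting cells, was at 136, 377, 37.8 and 40.8 CPM (FDR = 0.152).

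The 250 bases before the start of Hey2 are shown because the gene is a Notch effector that fell and the window holds the letters of the motif of RBPJ, the DNA-binding partner of the Notch intracellular domain. The sequence is from RefSeq (GRCm38.p6), chr10:30842784-30843033, on the minus strand, and the capitals mark TTCCCAC, the reverse complement of the searched GTGGGAA.
Hey2: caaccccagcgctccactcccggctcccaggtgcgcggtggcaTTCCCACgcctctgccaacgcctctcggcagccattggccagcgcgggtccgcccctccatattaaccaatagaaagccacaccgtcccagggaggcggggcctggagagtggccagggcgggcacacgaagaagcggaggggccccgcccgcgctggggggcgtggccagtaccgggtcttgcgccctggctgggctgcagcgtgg

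The match began 207 bases before the start. GTGGGAA on either strand was held by 6.6% of all matched genes, 10.7% of the higher genes and 9.47% of the lower genes, and CTTTGT, the core bound by SOX factors, by 14.9%, 16% and 22.1%.

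Transcription factors that mark supporting cells were more variable. Sox9, a SOX factor of supporting cells, fell from 402 and 242 CPM to 2.62 and 5.65 CPM (log2 -6.28 ± 1.32, FDR = 0.0258). Sox2 was at 77.5 and 77.1 CPM in SCs but at 0.134 and 14.9 CPM in OHCs (P7), and was not called (FDR = 0.311). Sox10 showed the same split between the OHC (P7) libraries, with 190 and 148 CPM in SCs against 0.403 and 10.9 CPM in OHCs (P7) (FDR = 0.106). Prox1, a homeobox gene of Deiters' and pillar cells, was at 14.7, 53.7, 0.0671 and 95.7 CPM, so that its highest and its lowest level were both in OHC (P7) libraries. Fgfr3, the gene whose promoter drives Cre in the SCs, was at 167, 312, 32.8 and 103 CPM, with FDR = 0.562. Cdkn1b, the cell cycle inhibitor p27Kip1 of supporting cells, was at 408, 267, 20.9 and 65.9 CPM (FDR = 0.0775). When single libraries were left out, 3 to 5 members of the list were called lower, and Id1 and Hey1 were called each time. Hes1 lost its call without SC 11 (FDR = 0.0711) or OHC (P7) 14 (FDR = 0.054), and Sox9 without either OHC (P7) library (FDR = 0.106 and 0.0555). Hey2 was lost without SC 12 or OHC (P7) 15 (FDR = 0.0826 and 0.139), as were Id3 (FDR = 0.225 and 0.135, and 0.204 without OHC (P7) 14) and, without SC 12, Jag2 (FDR = 0.125). Without OHC (P7) 15, 3 members were called lower, and without SC 12, 4 were.

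Gap junction, potassium buffering and glia-like genes were lower in 3 of 25 tested members and higher in 0 by edgeR (unadjusted p under 0.05 above 0 for 1 member, DESeq2 2, limma-voom 0), with a median log2 fold change of -2.59. S100a1, a calcium-binding protein, was at 7255 and 10808 CPM in SCs against 809 and 791 CPM in OHCs (P7), a log2 difference of -3.50 ± 0.62 with FDR = 0.0109. Gjb6, a connexin gene of the cochlear gap junctions, fell from 185 and 313 CPM to 0.873 and 1.17 CPM (log2 -7.91 ± 1.57, FDR = 0.0197), and the water channel gene Aqp4 fell from 461 and 325 CPM to 1.41 and 0.164 CPM (log2 -9.03 ± 1.96, FDR = 0.0300). Gjb2, the connexin partner of Gjb6, was at 124, 393, 14.1 and 37.2 CPM, with FDR = 0.203. Kcnj16, a subunit of inward rectifier potassium channels, was at 1871, 2061, 2.62 and 65.2 CPM (FDR = 0.0931), and its partner Kcnj10 at 367, 867, 1.01 and 133 CPM (FDR = 0.436). Both were thus more than 10 times higher in OHC (P7) 14 than in OHC (P7) 15. S100a1 was called each time a library was left out, whereas Gjb6 was lost without either OHC (P7) library (FDR = 0.0707 and 0.059) and Aqp4 without OHC (P7) 14 (FDR = 0.0759).

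The matrix of the tectorial membrane, which is secreted by cells of the cochlear epithelium, gave both directions, with 1 member up, 1 down and 17 of 19 not called, and a median log2 fold change of -0.06. Tecta, which encodes alpha-tectorin, rose from 0 and 0.106 CPM to 47.9 and 193 CPM (log2 10.89 ± 1.95, FDR = 0.0145). Ceacam16, a tectorial membrane protein that appears as hearing begins, fell from 225 and 3154 CPM to 0.201 and 1.77 CPM (log2 -10.67 ± 2.56, FDR = 0.0469). The beta-tectorin gene Tectb was present on both sides, at 292, 331, 624 and 1611 CPM, with FDR = 0.373. Otog and Otogl, which encode otogelin and its relative, were at 961, 1079, 14.8 and 426 CPM and at 482, 471, 0.537 and 98.8 CPM, and neither was called. Neither Tecta nor Ceacam16 was called each time a library was left out: FDR was 0.0979 for Tecta without OHC (P7) 14, and between 0.0518 and 0.107 for Ceacam16 without SC 11, OHC (P7) 15 or OHC (P7) 14.

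In the cytoskeleton list, made of the tubulins, keratins and actin-associated genes that stiffen pillar and Deiters' cells, 1 of 21 tested members fell and 1 rose (median log2 fold change -1.50). Krt19, an epithelial keratin, fell from 43.9 and 62.1 CPM to 0.0671 and 0.0818 CPM (log2 -9.37 ± 1.90, FDR = 0.0258), and Tpm1, a tropomyosin, rose from 70.1 and 106 CPM to 374 and 495 CPM (log2 2.31 ± 0.48, FDR = 0.0238). Krt19 lost its call without SC 11 (FDR = 0.0616), OHC (P7) 15 (FDR = 0.144) or OHC (P7) 14 (FDR = 0.137), and Tpm1 without SC 12 (FDR = 0.129), OHC (P7) 15 (FDR = 0.0597) or OHC (P7) 14 (FDR = 0.142). Krt18 was at 109, 65.8, 0.739 and 0.928 CPM but was not called (FDR = 0.195), and the tubulin gene Tuba1b was at 509, 492, 73 and 162 CPM (FDR = 0.0843).

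**Figure D4:**
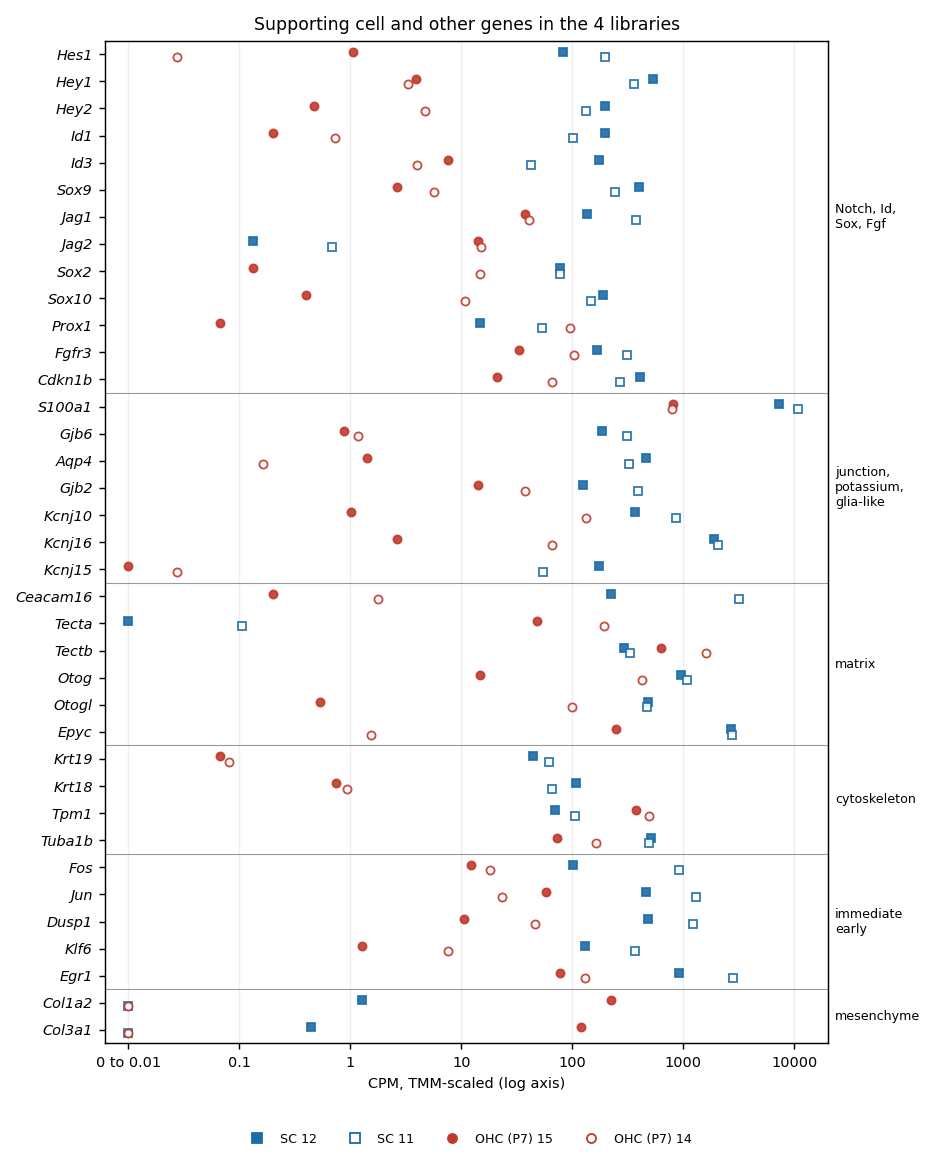
CPM of supporting cell, matrix, cytoskeletal, immediate early and mesenchymal genes in the 4 libraries on a log axis, with symbols as in the plot of hair cell genes and values from 0 to 0.01 CPM at the left edge. OHC (P7) 14 and 15 lie together for S100a1, Gjb6 and Hey1 and far apart for Sox2, Sox10, Prox1, Kcnj10, Otogl and Epyc.

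The OHC (P7) libraries also differed from each other. Among members of the 4 supporting cell lists with at least 50 CPM in any of the 4 libraries, levels over 10 times higher in OHC (P7) 14 than in 15 were found for Hey2, Sox2, Sox10, Prox1, Kcnj10, Kcnj16, Cryab, Otog, Otogl, Cd44, Vim and Lcp1. The reverse was found for Hes1, Sparcl1, Epyc, Dcn and Tagln2, and for the mesenchymal genes Col1a2, at 223 CPM in OHC (P7) 15 and 0 CPM in 14, and Col3a1, at 119 and 0 CPM. In the wider transcription factor list 10 genes were that much higher in OHC (P7) 14 and 7 in 15, the called gene Gata2 among the latter, and the potassium channel, adhesion, and collagen and laminin lists held 4, 1 and 3 such genes, in part the same ones. No member of the 5 hair cell lists with at least 50 CPM in any of the 4 libraries differed by that much. Members below that level were not compared in this way, such as Clrn2, at 6.11 CPM in OHC (P7) 15 and 0 CPM in 14. The part of these differences in the calls above was not tested beyond the runs without a library.

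Markers of other cells differed between the groups in some lists and not in others, and their part in the results above was not tested. Schwann cell and myelin genes summed to 49.7 and 37.3 CPM in SCs against 36.1 and 38.5 CPM in OHCs (P7), with 0 of 6 tested members called by edgeR, DESeq2 or limma-voom and 0 with an unadjusted p under 0.05. Blood and vessel genes summed to between 0.372 and 10.8 CPM in all 4 libraries, with none called by these tools and none with an unadjusted p under 0.05, and Kdr and Cldn5 without a count. Macrophage and lymphocyte genes summed to 6.57, 21.1, 51.6 and 28.9 CPM, with C1qa, C1qc, Ptprc and Nkg7 without a count, while C1qb, a complement gene of macrophages, was at 0.0444, 0.0266, 15.6 and 13.1 CPM and was not called (FDR = 0.147). Of the 3 tested members not called, 2 had fitted changes above 0 and 1 below. The latter was Cd68, at 6.26, 18.3, 1.54 and 0.0273 CPM (log2 -3.98, FDR = 0.397), which made up most of the SC sums. In that list, 1 of 4 tested members rose: Laptm5, a lysosomal protein, was at 0.0444, 0.133, 34.2 and 14 CPM (FDR = 0.0380) and was not called without SC 12 (FDR = 0.15), SC 11 (FDR = 0.105) or OHC (P7) 15 (FDR = 0.0898). Fibroblast genes summed to 18.6 and 22.6 CPM in SCs against 454 and 147 CPM in OHCs (P7), and 1 of 7 tested members rose, Pdgfra, a growth factor receptor, at 0.0888, 0.0266, 67.8 and 94.2 CPM (FDR = 0.000538). Neuronal genes summed to 12.9 and 0.212 CPM in SCs against 192 and 179 CPM in OHCs (P7), and 2 of 8 tested members rose: the neurofilament genes Nefm, at 0.400, 0.106, 86.3 and 111 CPM (FDR = 0.00104), and Nefl, at 0.533, 0.0266, 104 and 67 CPM (FDR = 0.0175). Of the 6 tested neuronal members not called, 3 had fitted changes above 0 and 2 below. Mapt was among those below, at 11.7, 0.0266, 0 and 0.109 CPM (log2 -6.48, FDR = 0.274), and made up most of the SC 12 sum. Gap43, Prph and Scn9a, which mark spiral ganglion neurons, had no count in any of the 4 libraries. The called members of these lists were also measured in the OHCs (P22) of the same series. There Pdgfra was at 401 and 250 CPM, Nefm at 96.5 and 39.2 CPM, Nefl at 19 and 33.1 CPM and Laptm5 at 2.29 and 16.7 CPM.

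Of 6 inner hair cell genes, 3 rose. These were Slc17a8, described above, Atp2a3, a calcium pump of the endoplasmic reticulum, at 0.0888, 0.0266, 60.9 and 27 CPM (FDR = 0.00376), and Tbx2, a T-box factor for inner hair cell identity, at 0 and 0 CPM in SCs against 4.30 and 13.9 CPM in OHCs (P7), at least 68.4-fold higher (FDR = 0.0109). All 3 were called each time a library was left out. In the inner hair cells of the same series, Slc17a8 was at 1907 and 1763 CPM, Atp2a3 at 1289 and 1548 CPM and Tbx2 at 272 and 198 CPM. In OHCs (P22), Slc17a8 was at 52.5 and 35.4 CPM, Atp2a3 at 1.76 and 4.97 CPM and Tbx2 at 3.44 and 0.632 CPM. Dnajc5b, a chaperone gene on the list, had no count in the 4 libraries. The members Nhs and Rprm had fitted changes below 0 and were not called. Nhs was at 61.7, 32.3, 0 and 1.04 CPM (log2 -6.44, FDR = 0.211) and Rprm at 9.06, 11.4, 7.32 and 0.0546 CPM (log2 -1.48, FDR = 0.768). The inner hair cell genes summed to 70.8 and 43.7 CPM in SCs against 148 and 68.3 CPM in OHCs (P7), and their source was not tested. Nhs and Rprm made up nearly all of the SC sums.

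Immediate early genes, which respond within minutes to stress and dissociation, fell in 4 of 24 tested members and rose in 0 (0 above 0 with an unadjusted p under 0.05, and 0 by DESeq2 and limma-voom), with a median log2 fold change of -2.69, or -2.51 with bounds. Jun was at 464 and 1303 CPM in SCs against 57.4 and 23.3 CPM in OHCs (P7), a log2 difference of -4.45 ± 0.79 with FDR = 0.011. Fos fell from 102 and 907 CPM to 12.3 and 18.1 CPM (log2 -5.05 ± 1.10, FDR = 0.0303), and the phosphatase gene Dusp1 from 477 and 1223 CPM to 10.5 and 45.9 CPM (log2 -4.91 ± 1.11, FDR = 0.0362). Klf6, a zinc finger factor, fell from 131 and 364 CPM to 1.28 and 7.64 CPM (log2 -5.78 ± 1.15, FDR = 0.0199). The SC libraries differed from each other, with the list summing to 2429 CPM in SC 12 and 9902 CPM in SC 11, against 318 and 367 CPM in OHCs (P7). Without SC 11 or OHC (P7) 15, 1 member was called, and without SC 12, 7 were: Klf6, Fos and Dusp1 had FDR = 0.0636, 0.221 and 0.0728 without SC 11, and 0.081, 0.123 and 0.12 without OHC (P7) 15. Fos was also lost without OHC (P7) 14 (FDR = 0.0762). Limma-voom called 1 member lower and DESeq2 10. Jun was the member called each time a library was left out.

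A wider list of transcription factor genes was taken by name from a table that the study made from these libraries, so it is not independent of the data. Of its members, 15 (3.38%) rose, 14 (3.15%) fell and 415 were not called, beside 2.56% higher and 0.853% lower over all tested genes. Those that rose and were not described above include Bach2, a repressor best known from lymphocytes, at 0.133, 0.133, 43.4 and 43.8 CPM (log2 8.31 ± 1.19, FDR = 0.0031). Nhlh1, a basic helix-loop-helix factor of developing neurons, rose from 0.178 and 0.398 CPM to 113 and 114 CPM (log2 8.57 ± 1.22, FDR = 0.0040). Lin28b, an RNA-binding repressor of let-7 maturation that marks immature cells, was at 0 and 0.0531 CPM in SCs against 37.2 and 39.4 CPM in OHCs (P7) (FDR = 0.00372), a ratio of summed counts of 1167 with an interval from 323 to 9643. In OHCs (P22), Lin28b was at 51.3 and 46.5 CPM and was not called between the ages (log2 -0.35, FDR = 0.912). Six2, a homeobox gene, rose from 13.9 and 72.1 CPM to 913 and 823 CPM (log2 4.34 ± 0.94, FDR = 0.0302). Among those that fell, Zbtb20, a zinc finger repressor, was the most abundant, at 5231, 4781, 292 and 630 CPM (log2 -3.44 ± 0.57, FDR = 0.00718). Bcl6, a zinc finger repressor that counters Notch targets in neural progenitors, fell from 57.8 and 109 CPM to 0.0671 and 0.518 CPM (log2 -8.03 ± 1.39, FDR = 0.00962), and Gata2 fell from 470 and 287 CPM to 3.29 and 0.218 CPM (log2 -7.79 ± 1.85, FDR = 0.0453), while its relative Gata3 was at 857, 833, 368 and 528 CPM (FDR = 0.378). When single libraries were left out, 9 to 16 of these factors were called higher and 7 to 10 lower, with the fewest higher without SC 12 and the fewest lower without OHC (P7) 15. Without SC 12, Six2 and Gata2 were not called (FDR = 0.0795 and 0.0641), and without OHC (P7) 14, Gata2 was not (FDR = 0.095).

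Among called genes with at least 50 CPM in the higher group, the largest rises by fitted log2 fold change included Fcrlb, Kndc1, Dnahc8, Mical2, Paqr9, Dfnb59, Dytn, Tecta and Ighm. Dfnb59 encodes pejvakin, a deafness gene product, and was at 0.0444, 0.0266, 106 and 53.1 CPM (FDR = 0.000502), a ratio of summed counts of 2053 with an interval from 568 to 16957. Dytn, which encodes dystrotelin, rose from 0.267 and 0.239 CPM to 558 and 468 CPM (log2 10.97 ± 0.66, FDR = 1.13e-05). Fcrlb, an Fc receptor-like gene, rose from 0 and 0.239 CPM to 306 and 717 CPM (log2 11.85 ± 1.51, FDR = 0.00143), and Ighm, which encodes the immunoglobulin mu constant region, from 2.53 and 2.10 CPM to 4076 and 4549 CPM (log2 10.86 ± 1.81, FDR = 0.00764). Of the 12 macrophage and lymphocyte genes, 3 were above 3 counts in each OHC (P7) library, Laptm5 and C1qb in both, while Ptprc and Cd79a had no count there, and the part of such cells in the Ighm level was not tested. Kndc1 was not called without SC 12 (FDR = 0.0542).

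Among called genes with at least 50 CPM in the higher group, the largest falls were Ctgf, Ppp1r3c, Vdr, Kcnj15, Cdk18, Cyp2s1, Runx1, Lect1, Igf1 and Plekhg3. Ctgf, a matrix-associated growth factor, had no count in OHCs (P7) and was at 111 and 15.5 CPM in SCs, so that it was at least 315-fold lower (FDR = 0.0471). Vdr, the vitamin D receptor, was at 66.4 and 35.7 CPM in SCs and without a count in OHCs (P7), at least 253-fold lower (FDR = 0.0436). Igf1, the insulin-like growth factor, fell from 1218 and 220 CPM to 0.537 and 0.164 CPM (log2 -11.09 ± 1.86, FDR = 0.00795). The SC libraries differed from each other by several times for Ctgf and Igf1, yet every SC value was above every OHC (P7) value. Kcnj15, an inward rectifier, was at 174, 54.9, 0 and 0.0273 CPM (FDR = 0.0415), a ratio of summed counts of 5122 with an interval from 919 to 202333. Without SC 12, Ctgf, Vdr and Kcnj15 were not called (FDR = 0.2, 0.117 and 0.12), nor were they without OHC (P7) 15 (FDR = 0.131, 0.131 and 0.127) or OHC (P7) 14 (FDR = 0.153, 0.154 and 0.106), and Vdr was also lost without SC 11 (FDR = 0.0582), while Igf1 kept its call each time. Cdk18, Cyp2s1, Runx1 and Plekhg3 were each lost in 3 of the 4 runs, with FDR up to 0.146, 0.109, 0.124 and 0.0826, and Ppp1r3c and Lect1 without OHC (P7) 14 (FDR = 0.0553 and 0.0649). In the whole set of 51 tested potassium channel genes, Kcnj15 was the 1 member that fell, against 9 that rose. The latter included Kcnab2, Kcnh6, Kcnh7, Kcnj13 and Kcnmb2. The median log2 fold change of the set was 1.34, or 0.75 with bounds. Without SC 12, 3 potassium channel genes were called higher, without SC 11 4 and without OHC (P7) 15 5.

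Adhesion genes of the claudin, cadherin and protocadherin families rose in 5 of 49 tested members (Cdh23, Pcdha4, Pcdh9, Pcdh7 and Cdh13) and fell in 0 by edgeR (6 with an unadjusted p under 0.05, DESeq2 6, limma-voom 2), with a median log2 fold change of 1.72, or 1.71 with bounds. Without SC 11, 2 were called, since Pcdh9, Pcdh7 and Cdh13 were lost (FDR = 0.079, 0.0917 and 0.106), and Pcdh7 was also lost without OHC (P7) 15 (FDR = 0.1) and Cdh13 without OHC (P7) 14 (FDR = 0.0555). Pcdha4, a clustered protocadherin whose exons are shared in part with its neighbors, was at 0.178, 0.186, 61.4 and 90.9 CPM (log2 8.67 ± 1.40, FDR = 0.00653). Collagen and laminin chains were called higher in 2.63% of tested members, beside 2.56% of all tested genes. Of 38 tested collagen and laminin chains, Col20a1 was the 1 called, at 0, 0.0531, 19.8 and 23.8 CPM (FDR = 0.0143), and it was not called without SC 12 (FDR = 0.0698).

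Genes of general cell growth and upkeep gave few calls. Among 21 growth and imprinted genes typical of neonatal tissue, Lin28b was the 1 that rose, and none fell by edgeR (2 with an unadjusted p under 0.05, DESeq2 2, limma-voom 1). This rise of Lin28b was against SCs, and it was not called between OHCs (P7) and OHCs (P22) (FDR = 0.912). The fetal growth factor Igf2 was at 0.311, 1.41, 31 and 0.655 CPM, with FDR = 0.465. Of 16 tested cell cycle genes, 0 were called by edgeR, 4 had an unadjusted p under 0.05, DESeq2 called 3 and limma-voom 1. Mki67, the proliferation marker, was at 0.0444, 0, 0.0671 and 0 CPM and too low to be tested. Cytosolic ribosomal protein genes gave 0 calls in 82 (16 with an unadjusted p under 0.05, 15 of them below 0, DESeq2 5, limma-voom 9), with 69 of 82 fitted changes below 0 and a median of -0.81, which was -0.87 with RLE factors and -0.74 with upper-quartile factors. Rps14, the member with the smallest p, was at 357, 438, 111 and 103 CPM (FDR = 0.0604). Nuclear genes of oxidative phosphorylation rose in 2 of 80 members (2.5%, beside 2.56% of all tested genes), with a median of 0.75. These 2 were Atp5b, a subunit of the ATP synthase, at 363, 464, 1934 and 2287 CPM, and Cyc1, cytochrome c1, at 23.4, 26.9, 153 and 185 CPM (FDR = 0.0453 for each). Neither was called in any run without a library (FDR from 0.0747 to 0.154 for Atp5b and from 0.138 to 0.206 for Cyc1).

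The age of the OHCs was set beside these results through the OHC (P22) libraries of the same series, which came from prestin-YFP mice. Both contrasts use the same OHC (P7) libraries, and age, reporter and library set cannot be told apart. In the genes of the lists and those named here, the following passed the test of P7 against P22 in the same model, and they were named after their values were seen. Higher at P7 were Espnl, at 647 and 785 CPM against 0 and 0.0421 CPM in OHCs (P22) (FDR = 0.00225), and the myosin gene Myo3b, at 70.5 and 42.9 CPM against 0 and 0 CPM (FDR = 0.0188). Nhlh1 was at 113 and 114 CPM against 0 and 0.253 CPM (log2 9.53, FDR = 0.0188). The active zone gene Rims2 was at 71.4 and 142 CPM against 0.882 and 4.42 CPM (log2 5.31, FDR = 0.0461), and Slc7a14, an amino acid transporter of hair cells, at 100 and 113 CPM against 6.52 and 4.80 CPM (log2 4.24, FDR = 0.0188). These 5 genes were thus high in the neonatal OHCs but at low levels in both OHCs (P22) and SCs. Tecta and Ighm belonged to the same set, at 0 and 0 CPM and at 0.0882 and 18.6 CPM in OHCs (P22) (FDR = 0.0440 and 0.0474).

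Another set was higher at P7 than at P22 and was not called against SCs. Tectb was at 0.264 and 0.253 CPM in OHCs (P22) (FDR = 0.0188), Jag1 at 0.0882 and 1.26 CPM (FDR = 0.0474), the cadherin gene Cdh1 at 0.353 and 0.716 CPM against 73.2 and 112 CPM at P7 (FDR = 0.00225), and the laminin gene Lamc1 at 0.353 and 0.716 CPM (FDR = 0.0114). The collagen gene Col2a1 and the proteoglycan gene Lum were at 0 and 0 CPM in OHCs (P22) (FDR = 0.0461 and 0.0440). The lack of a call against SCs did not mean like levels for Lum. It was at 684 and 716 CPM in SCs against 21.6 and 50.2 CPM in OHCs (P7), without overlap (log2 -4.28 ± 1.23, FDR = 0.102). In the other direction, Dytn was at 3754 and 2211 CPM (FDR = 0.0440) and Lbh, a transcriptional cofactor, at 1588 and 1834 CPM in OHCs (P22) against 86.9 and 89 CPM at P7 (FDR = 0.0307). Against SCs, Lbh lost its call without SC 12 (FDR = 0.0503). Slc26a5, at 3789 and 2749 CPM, and Ocm, at 7562 and 9278 CPM in OHCs (P22), were not called between the ages (FDR = 0.275 and 0.332), nor was Pou4f3, at 484 and 560 CPM (FDR = 1).

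**Figure D5:**
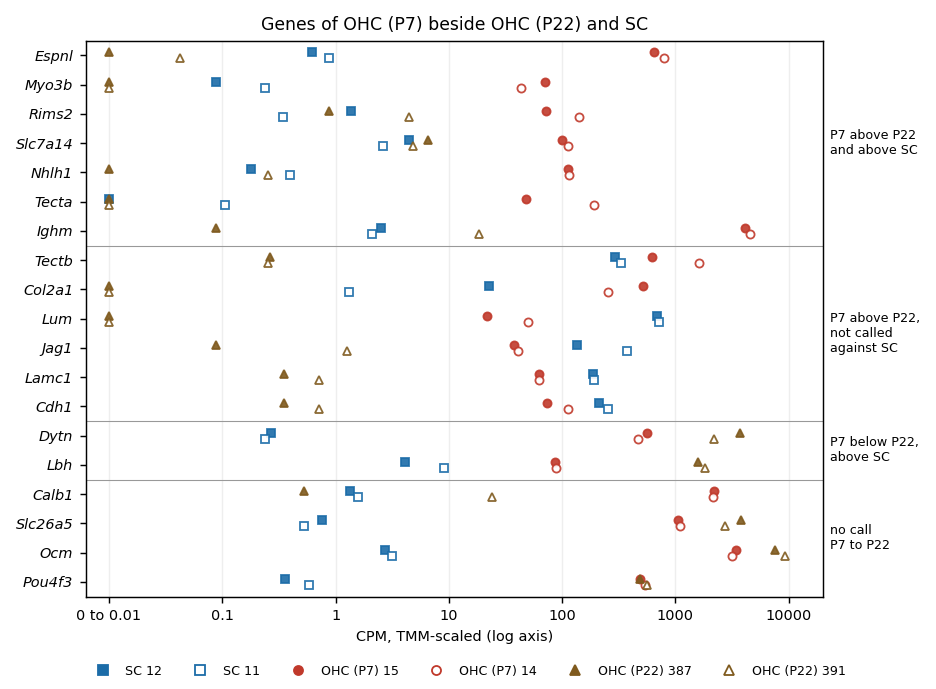
CPM on a log axis in SCs (blue squares), OHCs (P7) (red circles) and OHCs (P22) (brown triangles), filled and open for the 2 libraries of each group, with values from 0 to 0.01 CPM at the left edge. Among the groups drawn, Espnl, Myo3b and Nhlh1 are high in both OHC (P7) libraries alone, while Slc26a5, Ocm and Pou4f3 are high at both ages.

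Beside the converted hair cells (cHCs), made from SCs by Atoh1 and taken at P33 as libraries 13 and 16, OHCs (P7) held more of several OHC genes. These contrasts again share the OHC (P7) libraries. The cHCs carried Fgfr3iCreER, the Atoh1-HA transgene, Chrna9-EGFP and the tdTomato reporter, with tamoxifen at P12 and P13. They were picked by tdTomato and Chrna9-EGFP. Cell type, age, genotype, reporter and tamoxifen cannot be told apart in these contrasts. Ocm was at 4.98 and 1.91 CPM in cHCs, a log2 difference of 9.90 (FDR = 0.000631), Slc26a5 at 97.6 and 23.4 CPM (log2 4.15, FDR = 0.0281) and Fam40b at 76.8 and 86.8 CPM (log2 5.02, FDR = 0.000631). Kcnma1, at 0.255 and 0.356 CPM (FDR = 0.0176), Snap91, at 19.3 and 26.1 CPM (FDR = 0.0223), and Otof, at 279 and 161 CPM (FDR = 0.0454), were also lower in cHCs than in OHCs (P7). Id1 was the reverse, at 55.5 and 30.2 CPM in cHCs (log2 -6.44 for OHC (P7) minus cHC, FDR = 0.0281). Pou4f3, at 235 and 330 CPM in cHCs, was not called (FDR = 0.485). Nor was Nhlh1, which was thus also present in cHCs, at 149 and 371 CPM (FDR = 0.66).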

How the data were processed

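RNA of handpicked fluorescent cells was amplified with single-primer isothermal amplification and sequenced as paired-end reads, without molecular identifiers, so that counting intervals cover counting error only. The authors deposited raw counts per gene for each library, made with HTSeq after CASAVA 1.7, Cutadapt, STAR and BWA on mm9; the strand setting is not given in the sources used here, so overlapping and antisense genes cannot be told apart. The duplicates of each cell type were described as biological by the study. Each of the 10 libraries, by the name in its file, matched the column of the same name in a table of the study.

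From the counts of 34590 genes, edgeR 4.0.16 in R 4.3.3 fitted 1 quasi-likelihood model to all 10 libraries, with TMM factors and filterByExpr by cell type (common dispersion 1.12, 5 residual degrees of freedom, prior count 2), and the contrast was OHC (P7) minus SC. A gene was called at FDR under 0.05 over all 16891 tested genes. Standard errors were derived from the F statistic, CPM were TMM-scaled, and fold bounds were set at 3 counts. The 95% counting intervals of ratios were exact binomial intervals. DESeq2 1.42.0, limma 3.58.1 (voom), other scalings, filters and library sets were alternatives. The steps were tested on simulated counts with 2 libraries a side, where edgeR and limma-voom recovered a small share of the changed genes and had a false share above the threshold set, and most calls of DESeq2 were false. Promoters came from the RefSeq table of GRCm38.p6, matched by symbol, and coordinates of genes are mm9.

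The gene lists and members were chosen with earlier results of these data known. Named genes were, per list, up to 4 called in each direction and 3 not called with the smallest p; the 10 largest rises and falls among called genes with at least 50 CPM in the higher group and no overlap; the 6 transcription factors with the smallest p in each direction; marker genes; and Atoh1, Slc26a5, Ocm, Fgfr3 and Chrna9. Other members named with values, such as Tmc1, Myo6, Pcdh15, Pclo, Hey2, Sox2, Prox1 and Kcnj10, were picked after their values were seen. Some results that these rules select are not reported here.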

Additional observations from a re-analysis of the deposited data

How the results depend on the processing

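The counts of called genes depended on the tool, the filter and the library set. The 432 higher and 144 lower genes became 1489 and 1184 with DESeq2, 748 and 424 with limma-voom, 867 and 636 with no filter on low counts (23415 genes tested), and 167 and 65 with at least 10 counts in each of the 4 libraries (9208 genes tested). With the 4 compared libraries alone, 267 were higher and 187 lower. With each record read from its own attached file, 0 were higher and 0 lower by edgeR, and 860 genes had an unadjusted p under 0.05. Without single libraries the counts ran from 314 to 352 higher and from 61 to 121 lower. RLE factors gave 414 and 144, upper-quartile factors 452 and 142, and a test against a 2-fold change 353 and 97. Of 148 named genes, 77 were called. Of these, 15 were tested and called under every alternative other than the attached files and the test against a 2-fold change. With at least 10 counts in each of the 4 libraries, 55 named genes kept their call or lack of it and 1 lost its call. The other named genes were not tested under that filter, so they could not be among the 15. None of the genes that changed sign was called in the main test. With the attached files the log2 fold changes of opposite sign were -0.96 for Tmc2, -10.92 for Clrn2, 0.12 for Actb, -6.33 for Col3a1, -8.33 for Col1a2, -3.88 for Hba-a2, 1.03 for Rprm, 0.04 for Uty and 0.24 for Col18a1. Leaving out single libraries gave from -10.24 to 1.07 for Mapt, from -1.33 to 4.68 for Nefh, from -5.66 to 13.67 for Col3a1, from -7.18 to 14.57 for Col1a2 and from -11.97 to 1.18 for Kdm5d. Apart from the filters, the library sets and the attached files, whose construction changes the genes or libraries tested, the cause was not tested. No paired analysis by replicate number was possible because the groups compared share none. The form of the title puts SC 12 with OHC (P7) 15 and SC 11 with OHC (P7) 14, and as a covariate it gave 415 higher and 139 lower genes, 390 and 113 of them shared with the genes reported. Across genes, the deviations of SC 12 and OHC (P7) 15 from their group means had r = 0.0401, so the form was not taken as a pairing. With 3 counts worth up to 0.2 CPM, differences below that level were not detectable.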

Other observations

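The most abundant OHC genes were not equally scarce in SCs. Beside the 8 higher genes with an SC mean under 0.1% of the OHC (P7) mean, the other 16 of the 24 most abundant higher genes ran from 0.809% for Hsd17b7, an enzyme of sterol and steroid synthesis, to 28.8% for Calm2, a calmodulin gene, and Pak3, a kinase of actin regulation, stood at 0.899%. They were chosen after their values were seen.

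The source of Ighm reads in OHCs (P7), 4076 and 4549 CPM, was not tested.

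With 2 libraries a side from single pools of cells, p-values rest on a spread estimated over the libraries of all 5 cell types. Cell type, age, reporter line and tamoxifen cannot be told apart, and the disagreement of the labels and the study over the OHC (P7) line remains.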
